A study of Mus musculus with 18 samples.

Results

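Voltage-gated sodium and calcium channel genes were followed with age in the vestibular organ, the inner ear's organ of balance, of Igf1 null mice and their wild-type counterparts. Members were all genes whose symbol begins with Scn followed by a digit and a or b, or with Cacna, Cacnb or Cacng, with 1 gene left out by the rule. Each had to be read by a probe set that names that gene alone, and the probe set with the highest mean was used. The rule gave 34 genes among the 19938 genes tested. They were 8 sodium pore subunits, 3 sodium beta subunits, 9 calcium pore subunits, 4 alpha2delta subunits, 3 calcium beta subunits and 7 gamma subunits. Scn4a, Cacnb3 and Cacng6, among others, had no such probe set and were not analysed here.

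The pore subunit of a voltage-gated channel forms the ion path and senses voltage. Sodium channels drive the upstroke of the action potential at axon initial segments and nodes of Ranvier, and their beta subunits tune gating and anchor the channel. Calcium channels couple voltage to transmitter release in neurons and hair cells and to contraction in muscle. Their beta and alpha2delta subunits bring the pore to the membrane, and most gamma subunits of this family serve AMPA receptors rather than calcium channels.

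The groups were Igf1 -/- and Igf1 +/+ mice at E18.5 (embryonic), P15 and P90 (postnatal), with 3 arrays in each of the 6 groups. All mice had a hybrid Mf1 with 129/sv background, and all were perfused with paraformaldehyde under pentobarbiturate before the inner ear was dissected. Igf1 encodes insulin-like growth factor 1, and the labels give the null as a whole-animal genotype, so no cell type was targeted. Each array is called a biological replicate, but the labels do not say whether it holds 1 animal or a pool, so p-values cover no more than array-to-array spread. Levels are log units of an unstated base after quantile normalization, so a difference of 1 means 2.72-fold for natural logs or 2-fold for log2. A gene was called changed when limma's Benjamini-Hochberg adjusted p over all 19938 genes was under 0.05, and differences are given with the standard error of that fit.

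Across all genes, age held most of the variance, with 63.6% on the first principal component. On the third, which held 5.46%, null E18.5 arrays 2 and 3 and wild-type P90 arrays 1 and 2 had scores of 13.5 to 18.8. The other 14 arrays ran from -25 to 9.9. The lowest scores were -25 and -15.4, in null P90 arrays 1 and 2, so the 4 arrays stood apart at the high end only. Results for channel genes are therefore also given without these 4 arrays where this changes a call. That fit leaves 1 array in null E18.5 and 1 in wild-type P90. Differences from those groups then rest on 1 array, so a call lost or gained there decides nothing about a gene. The sex-linked gene Xist measured 7.42 to 7.91 in null P90 arrays and 1.86 to 3.33 in wild-type P90 arrays, so sex and genotype cannot be told apart at P90. Wild-type P15 arrays measured 5.34 to 7.48, so sex also differs along that genotype's second age step. Null P15 arrays measured 7.61, 8.09 and 4.09, against 7.31 to 8.01 in null E18.5 arrays, so 1 null P15 array also differs from the other null arrays. The Igf1 probe set measured 6.40 to 6.88 in null E18.5 and 6.98 to 7.07 in wild-type E18.5 arrays, 5.42 to 5.69 in null P15 and 5.87 to 6.11 in wild-type P15 arrays, and 5.31 to 5.51 in null P90 and 5.39 to 5.63 in wild-type P90 arrays. No genotype difference of Igf1 passed the test (smallest adjusted p = 0.16), and the sources used here do not say whether its probes lie in the deleted part, so the labels cannot be checked by it. Hair cell markers averaged 3.83 to 4.50 per array, while the cochlear outer hair cell marker Slc26a5 stayed between 2.03 and 2.55, under a rough guide to dim probe sets of 3.52 taken from 1015 olfactory receptor genes. Of the channel genes, the retinal calcium pore Cacna1f was the 1 member whose highest group mean (2.78) lay under that guide. Another 8 lay under it in some groups (Scn1a, Scn3a, Scn4b, Scn10a, Cacna1h, Cacna1i, Cacnb2 and Cacng3), and a difference from such a group may understate the change.

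Between E18.5 and P15 the channel genes that changed mostly rose. In null mice 18 of 34 members were higher and 5 lower at P15 than at E18.5, against 20.3% higher and 20.5% lower among all genes. In wild-type mice 18 members were higher and 3 lower, against 19.7% higher and 21.9% lower among all genes. The median member difference was 0.40 in null and 0.42 in wild-type mice, and that of all genes was -0.04 in null and -0.05 in wild-type mice. All 18 members higher in null mice were among the 18 higher in wild-type mice. Among the 22 members classed from background knowledge as mainly of nerve tissue, 15 were higher and 1 lower in each genotype.

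**Figure D1:**
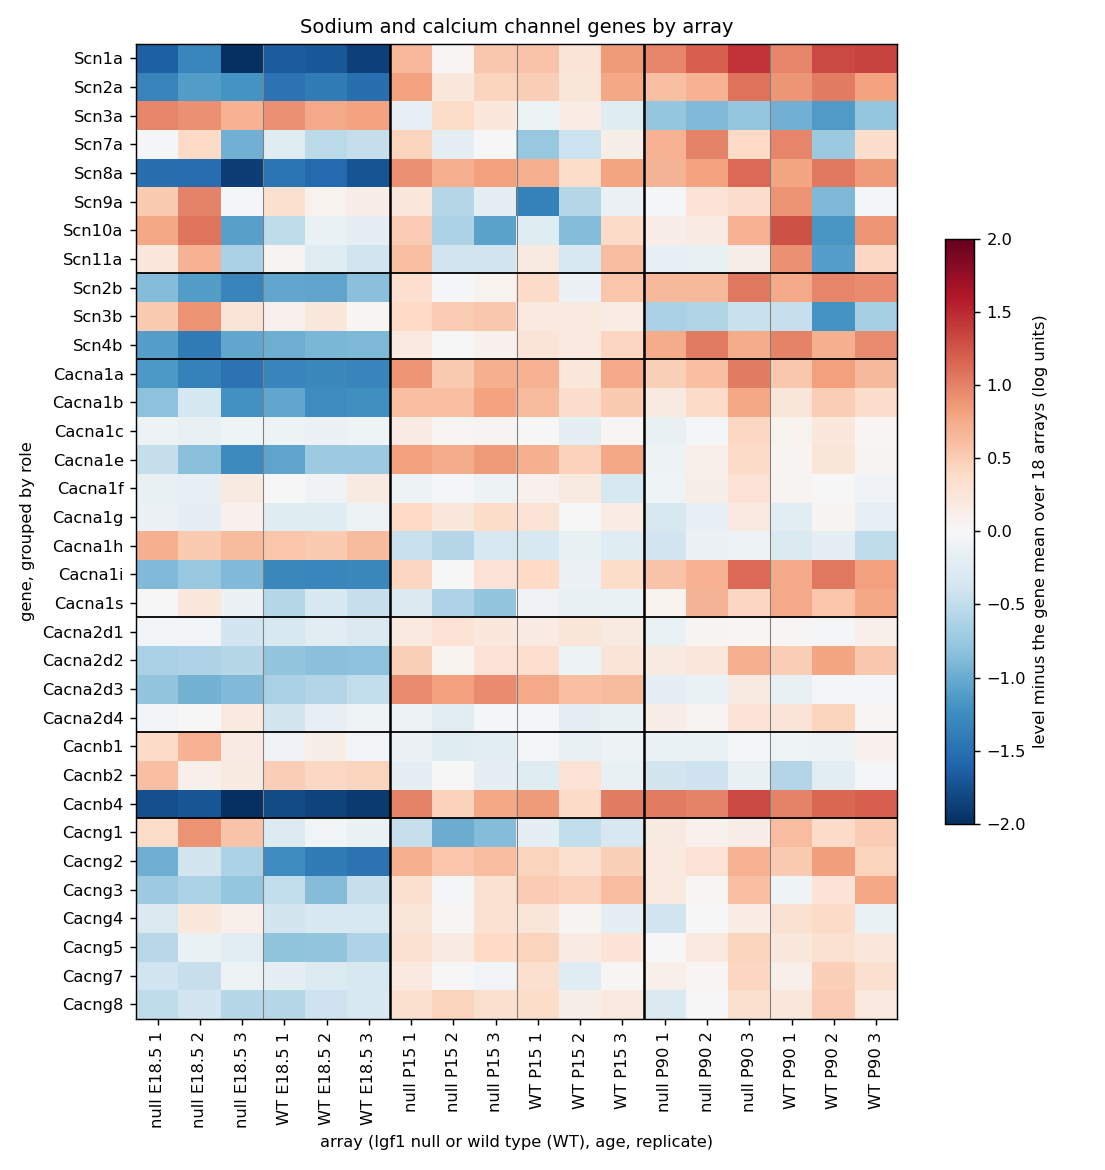
Level of each of the 34 channel genes in each of the 18 arrays, as the difference from that gene's mean over all arrays in log units (colour), with genes in rows grouped by role and arrays in columns by age and genotype (null, then wild type, WT). Scn1a, Scn2a, Scn8a, Cacna1a and Cacnb4 are blue in all 6 E18.5 arrays, Scn3a and Cacna1h are red there, and Scn7a, Scn9a, Scn10a and Scn11a vary within groups.

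The sodium pore genes of central neurons diverged with age, with Scn1a, Scn2a and Scn8a rising and Scn3a falling. Scn8a encodes the main pore at mature nodes of Ranvier. It measured 3.97, 3.96 and 3.59 at E18.5, 6.40, 6.20 and 6.30 at P15, then 6.16, 6.29 and 6.62 at P90 in null arrays. Wild-type arrays gave 4.02, 3.92 and 3.75 at E18.5, 6.19, 5.85 and 6.27 at P15, then 6.27, 6.54 and 6.33 at P90. All postnatal arrays lay above all embryonic ones. P15 and P90 overlapped in null arrays, while in wild-type arrays the lowest of P90 and the highest of P15 both rounded to 6.27. The wild-type P90 minus P15 difference was 0.28 ± 0.14 and not called (adjusted p = 0.18). The P15 minus E18.5 difference was 2.46 ± 0.14 in null mice (adjusted p = 4.6e-09) and 2.21 ± 0.14 in wild-type mice (1.1e-08).

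Scn1a, a pore prominent in fast-spiking inhibitory neurons, kept rising to P90. Null arrays measured 3.41, 3.73 and 2.99 at E18.5, 5.70, 5.08 and 5.58 at P15, then 6.01, 6.23 and 6.48 at P90. Wild-type arrays measured 3.38, 3.34 and 3.17 at E18.5, 5.61, 5.30 and 5.89 at P15, then 6.02, 6.36 and 6.39 at P90. The 3 ages did not overlap in either genotype, and the E18.5 means (3.38 in null and 3.30 in wild-type arrays) lay under the dim guide, so the first step may be understated. It was 2.08 ± 0.20 in null mice (adjusted p = 9.2e-07) and 2.3 ± 0.20 in wild-type mice (2.9e-07), and the second 0.78 ± 0.20 in null mice (adjusted p = 0.021) and 0.66 ± 0.20 in wild-type mice (0.038). Without the 4 arrays the second step of wild-type mice was 0.79 and no longer called (adjusted p = 0.14). With array medians subtracted neither second step was called, at 0.62 in null (adjusted p = 0.057) and 0.39 in wild-type mice (0.14).

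The promoters of the genes with the steepest rises are shown because these genes moved together and differ in base composition. The windows run from 250 bases before to 50 after the RefSeq start on GRCm38.p6, 26 of the 34 members have a window there, and a member with several is shown by its first. Every CG dinucleotide is in capitals.
Cacnb4, chr2:52676094-52676393, minus strand: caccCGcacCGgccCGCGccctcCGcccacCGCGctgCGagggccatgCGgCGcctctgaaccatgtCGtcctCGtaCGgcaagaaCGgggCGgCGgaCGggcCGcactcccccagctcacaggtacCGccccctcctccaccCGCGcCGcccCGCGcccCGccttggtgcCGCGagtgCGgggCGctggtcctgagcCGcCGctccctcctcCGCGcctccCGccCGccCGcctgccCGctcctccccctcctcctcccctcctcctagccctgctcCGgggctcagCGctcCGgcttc
Scn8a, chr15:100870395-100870694, plus strand: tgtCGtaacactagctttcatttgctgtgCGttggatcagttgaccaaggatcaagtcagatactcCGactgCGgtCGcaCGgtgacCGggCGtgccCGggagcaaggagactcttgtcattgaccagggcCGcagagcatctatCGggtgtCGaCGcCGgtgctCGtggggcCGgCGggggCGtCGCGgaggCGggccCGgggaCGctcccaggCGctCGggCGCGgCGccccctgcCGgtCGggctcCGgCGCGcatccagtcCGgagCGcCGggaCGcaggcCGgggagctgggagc
Scn1a, chr2:66440788-66441087, minus strand: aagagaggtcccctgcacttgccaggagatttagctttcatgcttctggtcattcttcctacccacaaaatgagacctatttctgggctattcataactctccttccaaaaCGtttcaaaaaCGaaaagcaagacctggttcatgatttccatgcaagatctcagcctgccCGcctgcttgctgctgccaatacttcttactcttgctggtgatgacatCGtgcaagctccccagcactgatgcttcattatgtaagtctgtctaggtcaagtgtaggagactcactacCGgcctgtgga
The Cacnb4 window held 40 CG dinucleotides and the Scn8a window 38, more than 96.2% and 95.2% of 27025 mouse promoters of that length (median 7). Scn1a held 5, more than 38.3% of them. The rise was thus seen with CG-rich and with CG-poor windows, and a count of letters in 1 window describes that window alone.

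Scn2a, the pore of young axon initial segments, was read by 14 probe sets, and each was higher in wild-type P15 than in wild-type E18.5 arrays, by 1.97 to 2.74 (median 2.40). The probe set used measured 5.57, 5.79 and 5.71 at E18.5, 7.70, 7.11 and 7.34 at P15, then 7.50, 7.59 and 7.98 at P90 in null arrays. In wild-type arrays it measured 5.42, 5.51 and 5.39 at E18.5, 7.39, 7.15 and 7.68 at P15, then 7.78, 7.92 and 7.70 at P90. It gave the smallest step of the 14, 1.69 ± 0.16 in null mice (adjusted p = 5.6e-07) and 1.97 ± 0.16 in wild-type mice (1.1e-07).

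Scn3a, a pore used mainly by embryonic neurons, went the other way at each step. Null arrays measured 4.87, 4.81 and 4.59 at E18.5, 3.74, 4.27 and 4.10 at P15, then 3.12, 3.01 and 3.12 at P90. Wild-type arrays measured 4.81, 4.66 and 4.70 at E18.5, 3.80, 4.05 and 3.65 at P15, then 2.94, 2.77 and 3.13 at P90. No array of a later age reached the level of an earlier one. The P15 minus E18.5 difference was -0.72 ± 0.13 in null mice (adjusted p = 5e-04) and -0.89 ± 0.13 in wild-type mice (6.3e-05), and the P90 minus P15 difference was -0.95 ± 0.13 in null mice (adjusted p = 0.00042) and -0.89 ± 0.13 in wild-type mice (8e-04). In the values as deposited, Scn3a no longer passed in null mice at either step (adjusted p = 0.12 and 0.097) or in wild-type mice at the second step (0.10). Without the 4 arrays the wild-type second step was -0.71 and not called (0.078). No protein-coding gene lies between Scn3a and Scn2a on chromosome 2, and 3 lie between Scn2a and Scn1a, so adjacent genes of 1 cluster changed in opposite directions.

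**Figure D2:**
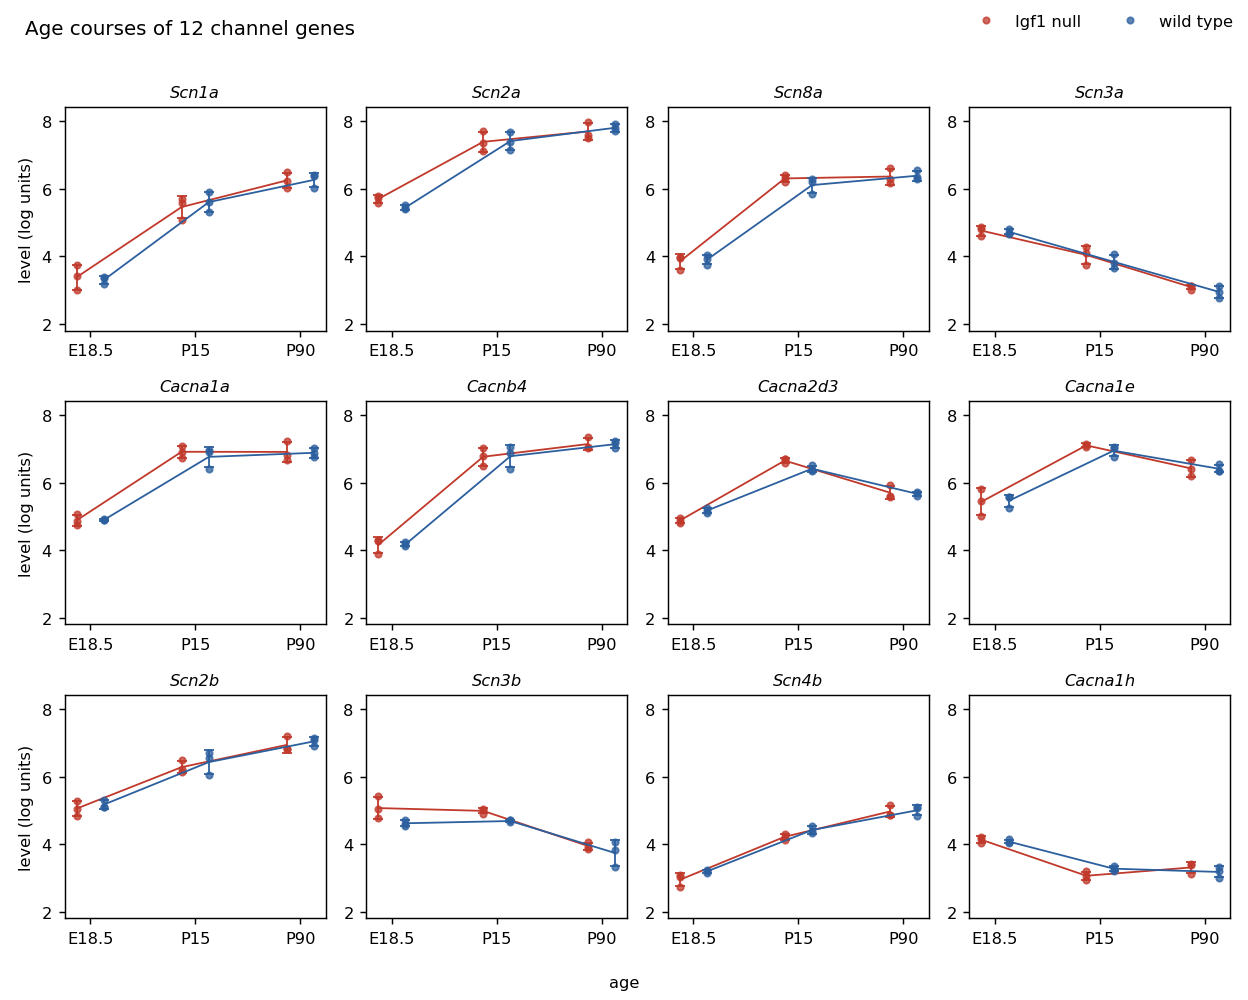
Levels of 12 channel genes in log units (vertical axis) at E18.5, P15 and P90 (horizontal axis, not to scale in time), with points for arrays, lines through group means and bars of 1 SD for Igf1 null (red) and wild type (blue, n = 3 each). Scn1a, Scn2b and Scn4b climb at each step, Scn3a falls at each step, Cacna1e and Cacna2d3 peak at P15, and Scn3b falls between P15 and P90.

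The sodium beta subunits also diverged. Scn2b, which is linked to the pore by a disulfide bond, measured 5.28, 5.04 and 4.83 at E18.5, 6.48, 6.13 and 6.22 at P15, then 6.80, 6.80 and 7.20 at P90 in null arrays. Wild-type levels were 5.11, 5.09 and 5.31 at E18.5, 6.54, 6.04 and 6.70 at P15, then 6.90, 7.13 and 7.09 at P90. Scn4b, the subunit tied to resurgent sodium current, averaged 2.94 ± 0.19 at E18.5, 4.22 ± 0.09 at P15 and 4.97 ± 0.17 at P90 in null arrays. Its wild-type means were 3.19 ± 0.04 at E18.5, 4.42 ± 0.12 at P15 and 5.0 ± 0.15 at P90 (SD, n = 3 each). Both genes rose at each step in each genotype, with adjusted p of 0.022 or less, and they are direct neighbours on chromosome 9. Without the 4 arrays the second step of Scn2b in wild-type mice was 0.67 and no longer called (adjusted p = 0.18). With array medians subtracted it was lost in both genotypes, at 0.42 in null (adjusted p = 0.11) and 0.27 in wild-type mice (0.22).

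Scn3b, the beta subunit best known from the embryonic brain, held its level to P15 and was lower at P90. It measured 5.03, 5.41 and 4.76 at E18.5, 4.90, 5.01 and 5.04 at P15, then 3.86, 3.91 and 4.06 at P90 in null arrays. Wild-type arrays gave 4.59, 4.72 and 4.54 at E18.5, 4.70, 4.70 and 4.65 at P15, then 4.05, 3.31 and 3.84 at P90. The P90 minus P15 difference was -1.04 ± 0.17 in null mice (adjusted p = 0.00095) and -0.95 ± 0.17 in wild-type mice (0.002). In the values as deposited the null difference was -0.58 and just missed the threshold (adjusted p = 0.051).

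Among the calcium pores, those of presynaptic terminals rose by P15. Cacna1a, the P/Q-type pore, measured 5.06, 4.85 and 4.73 at E18.5, 7.09, 6.73 and 6.91 at P15, then 6.68, 6.81 and 7.23 at P90 in null arrays. In wild-type arrays it measured 4.88, 4.92 and 4.88 at E18.5, 6.90, 6.41 and 6.97 at P15, then 6.75, 7.03 and 6.86 at P90. The P15 minus E18.5 difference was 2.03 ± 0.16 in null mice (adjusted p = 8.3e-08) and 1.87 ± 0.16 in wild-type mice (1.7e-07), after which the arrays of P15 and P90 overlapped. Cacna1b, the N-type pore, rose by 1.46 ± 0.18 in null mice (adjusted p = 9.9e-06) and 1.68 ± 0.18 in wild-type mice (2e-06).

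Cacna1e, the R-type pore, peaked at P15. Null arrays measured 5.82, 5.45 and 5.02 at E18.5, 7.11, 7.04 and 7.15 at P15, then 6.19, 6.39 and 6.67 at P90. Wild-type arrays measured 5.24, 5.56 and 5.57 at E18.5, 7.01, 6.76 and 7.06 at P15, then 6.34, 6.54 and 6.35 at P90. In each genotype every P15 array lay above every array of the other 2 ages. The second step was -0.68 ± 0.17 in null mice (adjusted p = 0.016) and -0.54 ± 0.17 in wild-type mice (0.041). In the values as deposited neither was called, at -0.44 in null (adjusted p = 0.096) and -0.56 in wild-type mice (0.051). The wild-type call was also lost without the 4 arrays (-0.60), with a term for them (-0.37, adjusted p = 0.31) and with the Xist level as a covariate (-0.45, 0.41). Leaving out any single wild-type P15 or P90 array lost it as well (0.061 to 0.11). The null call was lost without null P15 array 3 (0.059) or null P90 array 1 (0.07). With the replicate block both were lost (0.051 in null and 0.09 in wild-type mice).

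The T-type pores, which open near the resting potential, did not move together. Cacna1i rose by 1.08 ± 0.16 in null mice (adjusted p = 4.7e-05) and 1.5 ± 0.16 in wild-type mice (1.5e-06) between E18.5 and P15. It rose again by P90, by 0.56 ± 0.16 in null mice (0.03) and 0.67 ± 0.16 in wild-type mice (0.011), and without the 4 arrays neither second step was called (0.052 and 0.22). Cacna1h fell by P15, with null arrays at 3.06, 2.94 and 3.19 at P15 against 4.22, 4.03 and 4.14 at E18.5, and wild-type arrays at 3.20, 3.35 and 3.27 at P15 against 4.06, 4.03 and 4.14 at E18.5. That difference was -1.07 ± 0.10 in null mice (adjusted p = 5.6e-07) and -0.81 ± 0.10 in wild-type mice (8.9e-06). Cacna1g changed least, with 0.41 ± 0.12 in null mice (adjusted p = 0.015) and 0.34 ± 0.12 in wild-type mice (0.035). Without the 4 arrays the null difference was 0.45 and no longer called. The wild-type call was lost with array medians subtracted (0.26, adjusted p = 0.11) and with the Xist level as a covariate (0.34, 0.057). It was also lost without wild-type E18.5 array 1 or 2, or wild-type P15 array 1 or 3. Cacna1c, the L-type pore of heart, smooth muscle and many neurons, stayed between 5.45 and 6.05 in all arrays and was called in no comparison, but differed by 0.52 in null mice at the first step as deposited (adjusted p = 0.017).

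By the probe sets used, the steepest rise of any member was that of Cacnb4, a beta subunit abundant in the cerebellum and mutated in the lethargic mouse. It measured 4.26, 4.31 and 3.89 at E18.5, 7.02, 6.48 and 6.79 at P15, then 7.06, 7.01 and 7.35 at P90 in null arrays. Wild-type levels were 4.23, 4.17 and 4.11 at E18.5, 6.87, 6.41 and 7.06 at P15, then 7.01, 7.18 and 7.22 at P90. The P15 minus E18.5 difference was 2.61 ± 0.17 in each genotype (adjusted p = 1.1e-08 in null and 1e-08 in wild-type mice). The paralog Cacnb2, the main beta subunit of heart, differed by -0.42 ± 0.16 in null mice (adjusted p = 0.052) and fell by 0.49 ± 0.16 in wild-type mice (adjusted p = 0.026), a wild-type call lost in the values as deposited (0.23). Without the 4 arrays the null difference was -0.73 and called (0.011), and both null means lay under the dim guide.

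Of the alpha2delta subunits, which carry pores to the surface, Cacna2d3 peaked at P15. Null arrays measured 4.96, 4.80 and 4.86 at E18.5, 6.69, 6.57 and 6.69 at P15, then 5.57, 5.61 and 5.93 at P90. Wild-type arrays measured 5.10, 5.16 and 5.25 at E18.5, 6.51, 6.34 and 6.38 at P15, then 5.59, 5.70 and 5.71 at P90. The rise was 1.78 ± 0.09 in null mice (adjusted p = 1.7e-09) and 1.24 ± 0.09 in wild-type mice (4.7e-08), and the fall by P90 was -0.95 ± 0.09 in null mice (2.4e-05) and -0.74 ± 0.09 in wild-type mice (0.00021). Both steps were called in each genotype in all 16 alternatives tried for each. Cacna2d2, a subunit of cerebellar Purkinje cells, rose by P15 in each genotype by 0.88 ± 0.14 (null, adjusted p = 0.00016) and 0.98 ± 0.14 (wild type, 5.4e-05), and Cacna2d1 by 0.39 ± 0.09 (null, 0.0017) and 0.47 ± 0.09 (wild type, 0.00036). Without the 4 arrays Cacna2d1 was also lower at P90 than at P15 in null mice (-0.24, 0.04). Cacna2d4, known from photoreceptors, differed by -0.15 in null and 0.09 in wild-type mice, and neither difference passed the test.

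Of the 7 gamma genes, Cacng2, Cacng3, Cacng5 and Cacng8 rose by P15 in each genotype. Cacng2 encodes stargazin, an AMPA receptor partner whose loss gives the stargazer mouse its head tossing and ataxia. It rose by 1.29 ± 0.15 in null mice (adjusted p = 6.1e-06) and 1.78 ± 0.15 in wild-type mice (2e-07), and a second probe set gave 3.09 in null and 2.95 in wild-type mice, more than Cacnb4. Cacng3 rose by 0.91 ± 0.19 in null mice (0.0012) and 1.13 ± 0.19 in wild-type mice (0.00016), Cacng5 by 0.59 ± 0.12 (null, 0.0012) and 1.03 ± 0.12 (wild type, 6.6e-06), and Cacng8 by 0.85 ± 0.13 (null, 9.1e-05) and 0.66 ± 0.13 (wild type, 0.00083). Cacng4 and Cacng7 were called in no comparison, but both were called higher at P15 in each genotype in the values as deposited, by 0.52 to 0.67 for Cacng4 and 0.51 to 0.68 for Cacng7.

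A list of axonal anchor and adhesion genes and of Fgf partners of sodium channels rose in the same interval. Of its 12 genes, 11 were higher at P15 than at E18.5 in each genotype and none lower. The median difference was 1.67 in null and 1.64 in wild-type mice. Among them the juxtaparanodal adhesion molecule Cntn2 rose by 2.15 in null mice (adjusted p = 8.4e-09) and 2.55 in wild-type mice (1.7e-09), and Fgf14, an intracellular partner of sodium pores, by 2.48 in null mice (4.9e-09) and 2.28 in wild-type mice (9.5e-09). Of 13 calcium channel regulators and active zone genes, 5 were higher and 1 lower in null mice and 4 higher and 1 lower in wild-type mice. The active zone scaffold Rims1 led them with 2.50 in null mice (8.6e-09) and 2.36 in wild-type mice (1.3e-08). Of 10 related cation channel genes, 5 were higher and 0 lower in null mice and 3 higher and 2 lower in wild-type mice. Among all genes, 20.3% were higher and 20.5% lower in null mice, and 19.7% higher and 21.9% lower in wild-type mice. In that list Unc80 and Unc79, partners of the leak channel Nalcn, rose by 2.14 and 1.85 in null mice and by 2.15 and 1.91 in wild-type mice.

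Markers of other tissues moved in the same interval. All 8 cerebellar granule neuron markers were higher at P15 in each genotype, with a median difference of 3.20 in null and 3.34 in wild-type mice. Their mean per array was 3.80 to 4.14 in null and 3.73 to 3.88 in wild-type arrays at E18.5, 6.95 to 7.05 in null and 6.79 to 7.06 in wild-type arrays at P15, and 6.83 to 7.14 in null and 6.75 to 7.10 in wild-type arrays at P90. Gabra6, a receptor subunit of granule cells, rose by 5.53 in null mice (adjusted p = 8.7e-12) and 5.44 in wild-type mice (1.1e-11), and Neurod1 by 5.29 in null mice (1e-09) and 5.98 in wild-type mice (3.1e-10). Both lay under the dim guide at E18.5 (2.35 in null and 2.53 in wild-type arrays for Gabra6, 2.86 in null and 2.06 in wild-type arrays for Neurod1), so these rises may be understated. Of 10 general neuron markers, 8 were higher in null and 9 in wild-type mice, and of 4 markers of myelinating glia 3 were higher in each. Of 7 ear ganglion neuron markers 3 were higher and 2 lower in each genotype, with a median difference of 0.12 in null and 0.05 in wild-type mice. By contrast 6 of 10 hair cell markers were lower in each genotype, and 5 of 6 supporting cell and otoconia markers were lower in null and 4 of 6 in wild-type mice. The part of these tissues in the rise of the channel genes was not tested, and in a bulk sample more cells of a type and more RNA per cell cannot be told apart.

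Between P15 and P90 fewer channel genes changed. In null mice 6 were higher and 5 lower at P90, against 6.12% higher and 6.83% lower among all genes. In wild-type mice 8 were higher and 4 lower, against 8.08% higher and 9.78% lower among all genes. The split depended on the scaling. As deposited it was 10 higher and 1 lower in null and 10 higher and 2 lower in wild-type mice. With array medians subtracted it was 4 higher and 6 lower in null and 5 higher and 6 lower in wild-type mice. Of all 19938 genes, 7762 in null and 5568 in wild-type mice were called as deposited. With array medians subtracted, 2907 in null and 7770 in wild-type mice were. The 6 higher in null mice (Scn1a, Scn2b, Scn4b, Cacna1i, Cacna1s and Cacng1) were among the 8 of wild-type mice, which also held Cacna2d2 and Cacna2d4. Scn3a, Scn3b, Cacna1e and Cacna2d3 were lower in each genotype, and the null list also held Cacna1g. Like calls over all genes, the wild-type count of members fell in several alternatives. It was 4 without the 4 arrays that stood apart (Scn3b and Cacna2d3 lower, Scn4b and Cacng1 higher), 6 without wild-type P15 array 2, 6 without wild-type P90 array 2, and 2 with the Xist level as a covariate (Scn3a and Cacna2d3). Wild-type calls over all genes fell from 3561 to 1271 without wild-type P15 array 2, 1377 without wild-type P90 array 2 and 400 with Xist. The null count of members was 7 without null P15 array 2 and 7 without null P15 array 3. Null calls over all genes then fell from 2582 to 1302 and 1355. These differences share the P15 arrays with those of the first step.

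Of the 3 members known from skeletal muscle, Cacng1, Cacna1s and Cacnb1, the test called a difference between the genotypes in the age course of Cacng1. Cacng1 encodes the gamma subunit of the skeletal muscle calcium channel. At E18.5 it measured 5.52, 6.05 and 5.71 in null arrays and 4.87, 5.09 and 5.02 in wild-type arrays. At P15 it measured 4.69, 4.16 and 4.28 in null arrays and 4.96, 4.66 and 4.82 in wild-type arrays. At P90 it measured 5.33, 5.23 and 5.28 in null arrays and 5.77, 5.53 and 5.65 in wild-type arrays. Null arrays were thus all above wild-type arrays at E18.5, mostly below at P15 and all below at P90.

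No single-age genotype difference of Cacng1 passed the test, with 0.77 ± 0.14 at E18.5 (adjusted p = 0.06), -0.44 ± 0.14 at P15 (0.52) and -0.38 ± 0.14 at P90 (0.35). An F test for equal genotype differences at the 3 ages did pass (adjusted p = 0.031), and Cacng1 was the 1 member called by it, against 0.256% of all genes (51 genes). At an unadjusted p under 0.05 it held 6 members, against 14.5% of all genes. The genotype difference at P15 was lower than that at E18.5 by -1.21 ± 0.20, and that at P90 by -1.15 ± 0.20. This call held in 13 of 27 alternatives. It was lost without the 4 arrays that stood apart (-0.97), but that fit has a single array in null E18.5 and in wild-type P90 and cannot settle the call. It was lost in the values as deposited (-1.13, adjusted p = 0.26) and with the Xist level as a covariate (-1.20, 0.075). F test calls over all genes then fell from 51 to 9 as deposited and 7 with Xist. It was also lost without any single wild-type E18.5 array, null E18.5 array 2, null P15 array 3, wild-type P15 array 1 or 3, null P90 array 1, or wild-type P90 array 1 or 2.

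Within null mice Cacng1 fell between E18.5 and P15 by -1.39 ± 0.14 (adjusted p = 1.5e-06), a fall called in all 16 alternatives, while the wild-type difference was -0.18 ± 0.14 (0.35). By P90 it rose by 0.90 ± 0.14 in null mice (adjusted p = 0.00095) and 0.84 ± 0.14 in wild-type mice (0.0017).

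Cacna1s, the pore and voltage sensor of skeletal muscle, measured 5.13, 5.34 and 5.01 at E18.5, 4.84, 4.51 and 4.33 at P15, then 5.20, 5.81 and 5.56 at P90 in null arrays. In wild-type arrays it measured 4.56, 4.82 and 4.67 at E18.5, 5.06, 4.98 and 5.0 at P15, then 5.88, 5.68 and 5.90 at P90. Null arrays were all above wild-type arrays at E18.5 and all below at P15, and the groups overlapped at P90. The genotype difference was 0.48 ± 0.15 at E18.5 (adjusted p = 0.24), -0.45 ± 0.15 at P15 (0.52) and -0.30 ± 0.15 at P90 (0.49), and the F test did not pass (0.11). Null mice showed a fall of -0.60 ± 0.15 by P15 (adjusted p = 0.0048), no longer called without the 4 arrays (-0.57, 0.081) or as deposited (-0.30, 0.32), and the wild-type difference was 0.33 ± 0.15 (0.096). By P90 it rose by 0.96 ± 0.15 in null mice (adjusted p = 0.00089) and 0.81 ± 0.15 in wild-type mice (0.0032), the wild-type call being lost without the 4 arrays (0.07).

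Cacnb1, the beta subunit of that channel, measured 5.17, 5.48 and 4.96 in null arrays and 4.72, 4.90 and 4.74 in wild-type arrays at E18.5, without overlap (difference 0.42 ± 0.11, adjusted p = 0.14). From P15 on, null arrays lay between 4.55 and 4.76 and wild-type arrays between 4.64 and 4.88. Null mice showed a fall of -0.61 ± 0.11 by P15 (adjusted p = 0.00028), no longer called as deposited (-0.29, 0.27), and the wild-type difference was -0.09 ± 0.11 (0.55).

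**Figure D3:**
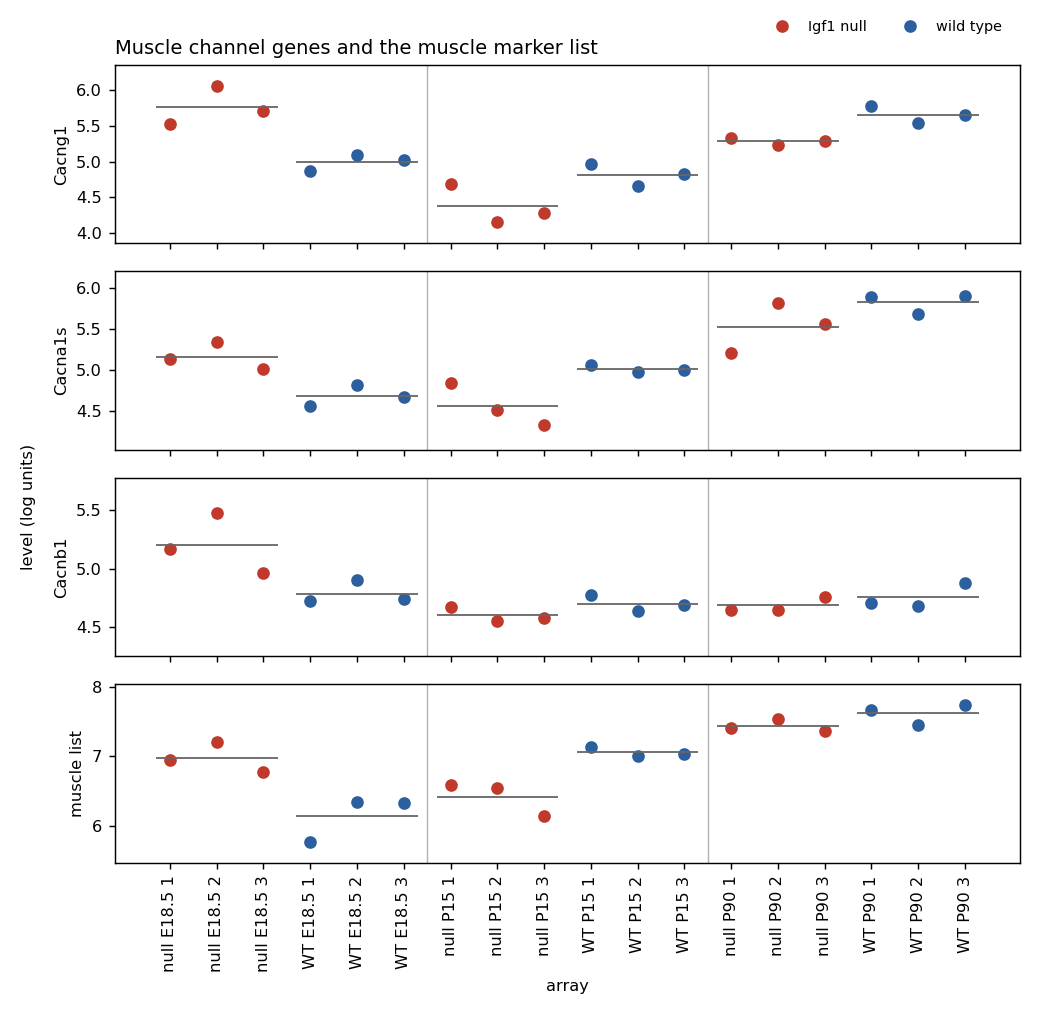
Levels in log units (vertical axes) of Cacng1, Cacna1s and Cacnb1 and the mean of 11 skeletal muscle markers in each of the 18 arrays (horizontal axis), with lines at group means, Igf1 null in red and wild type in blue. In all 4 panels null arrays lie above wild-type arrays at E18.5, and the null mean lies below the wild-type mean at P15 and P90.

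Skeletal muscle markers also differed between the genotypes in their age course. The mean of the 11 markers was 6.78 to 7.21 in null and 5.77 to 6.34 in wild-type arrays at E18.5, 6.14 to 6.58 in null and 7.01 to 7.14 in wild-type arrays at P15, and 7.36 to 7.53 in null and 7.45 to 7.74 in wild-type arrays at P90. At E18.5, 4 of the 11 were called higher in null mice (median difference 0.85), against 0.0802% of all genes called in either direction. Among the 4 was the troponin Tnnc2, higher by 1.02 ± 0.15 (adjusted p = 0.025). At P15 and P90 none was called (medians -0.63 and -0.21). The F test called 7 of the 11, against 0.256% of all genes. When an extra term allowed for the 4 arrays standing apart, the F test and the E18.5 comparison each called 0 of 19938 genes. None of these marker calls then remained. Between E18.5 and P15, 8 of 11 fell and 1 rose in null mice, against 20.5% and 20.3% of all genes. In wild-type mice 6 rose and none fell (median 0.48), against 19.7% and 21.9% of all genes, and Cacng1, Cacna1s and Cacnb1 were not called there. By P90, 11 of 11 rose in null and 6 of 11 in wild-type mice, against 6.12% and 8.08% of all genes. The part of muscle tissue in the Cacng1 result was not tested.

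Genes that work beside these channels in excitation-contraction coupling gave a mixed picture. Of 12, 1 was higher and 4 were lower at P15 than at E18.5 in null mice, and 4 were higher and 1 lower in wild-type mice. The shares of all genes were 20.3% higher and 20.5% lower in null mice, and 19.7% higher and 21.9% lower in wild-type mice. Ryr2, the calcium release channel of heart and brain, rose by 2.55 in null mice (adjusted p = 8.4e-09) and 2.44 in wild-type mice (1.1e-08). Casq2, the calcium buffer of heart and slow muscle, fell by 2.31 in null mice (2.3e-07) and by 1.53 in wild-type mice (1.4e-05). The junctional protein Jph2 fell by 0.63 in null mice (0.001) and differed by 0.01 in wild-type mice (0.94). Between P15 and P90, 6 of the 12 rose in null mice and 7 in wild-type mice, and none fell.

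The Cacna1s promoter is shown because Cacna1s is the muscle pore of the set and the window for Cacng1 is not in the table used. CAGCTG, an E-box sequence that MyoD-family factors can bind, is in capitals and begins 123 bases before the start.
Cacna1s, chr1:136052561-136052860, plus strand: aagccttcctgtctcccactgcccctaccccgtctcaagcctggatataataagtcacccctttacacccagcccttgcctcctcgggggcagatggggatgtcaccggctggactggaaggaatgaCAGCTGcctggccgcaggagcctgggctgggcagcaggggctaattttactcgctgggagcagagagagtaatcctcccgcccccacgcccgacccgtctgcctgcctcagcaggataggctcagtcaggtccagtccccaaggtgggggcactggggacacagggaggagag
CAGCTG reads alike on both strands, and 16.1% of the 27025 promoters held it. Of the 26 members with a window, 10 held it in their first. The MEF2 consensus, searched on both strands, was in 3.26% of all promoters and in 0 of 26 members.

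At no age did a genotype difference of a channel gene pass the test. Null minus wild type gave 0 calls at E18.5, against 0.0802% of all genes, with 9 members at an unadjusted p under 0.05 (12.5% of all genes). It gave 0 calls at P15, against 0.015%, with 3 members unadjusted (6.97% of all genes), and 0 at P90, against 0.296%, with 2 unadjusted (11.1%). At E18.5, 11 members had all null arrays above all wild-type arrays, against 7.95% of all genes, and 2 had all below, against 11.7%. The 11 were Scn2a, Scn3b, Cacna1i, Cacna1s, Cacna2d2, Cacna2d4, Cacnb1, Cacng1, Cacng2, Cacng4 and Cacng5, and the 2 were Scn4b and Cacna2d3. At P15, 3 members lay above (8.75% of all genes) and 4 below (7.75%), and at P90 none lay above (6.42%) and 1, Cacng1, below (4.06%).

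Cacng2 came nearest after Cacng1 at E18.5. It measured 4.18, 4.79 and 4.52 in null arrays and 3.91, 3.76 and 3.69 in wild-type arrays, a difference of 0.71 ± 0.15 (adjusted p = 0.092). Its second probe set differed by -0.05 between the same groups, so the probe sets of this gene disagree. The Scn2a probe sets likewise ran from -0.55 to 0.42 at E18.5, although the one used had all null arrays above wild-type arrays (0.25 ± 0.16, 0.51).

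Cacng5, a less studied AMPA receptor partner, measured 3.75, 4.18 and 4.09 in null and 3.51, 3.52 and 3.69 in wild-type E18.5 arrays (0.43 ± 0.12, adjusted p = 0.19). Scn3b differed by 0.45 ± 0.17 (0.31) and Cacna1i by 0.45 ± 0.16 (0.28). Cacna2d3 differed by -0.30 ± 0.09 at E18.5 (0.23), 0.24 ± 0.09 at P15 (0.60) and 0.04 ± 0.09 at P90, without overlap of the arrays at the first 2 ages, and its F test gave an adjusted p of 0.17. For Cacnb4 the genotype difference was -0.01 at E18.5, -0.02 at P15 and 0.01 at P90. Leaving out null E18.5 array 1 brought Cacng1, Cacng2 and Cacng5 past the threshold at E18.5 (adjusted p = 0.019, 0.019 and 0.038). That leaves null E18.5 arrays 2 and 3, both among the 4 that stood apart, and calls over all genes rose from 16 to 387. Leaving out null E18.5 array 3 brought Cacnb1 past the threshold (0.048), with 37 calls over all genes. The general neuron markers averaged 4.44 to 5.55 per array in null and 4.55 to 4.76 in wild-type mice at E18.5, and 0 of 10 were called.

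**Figure D4:**
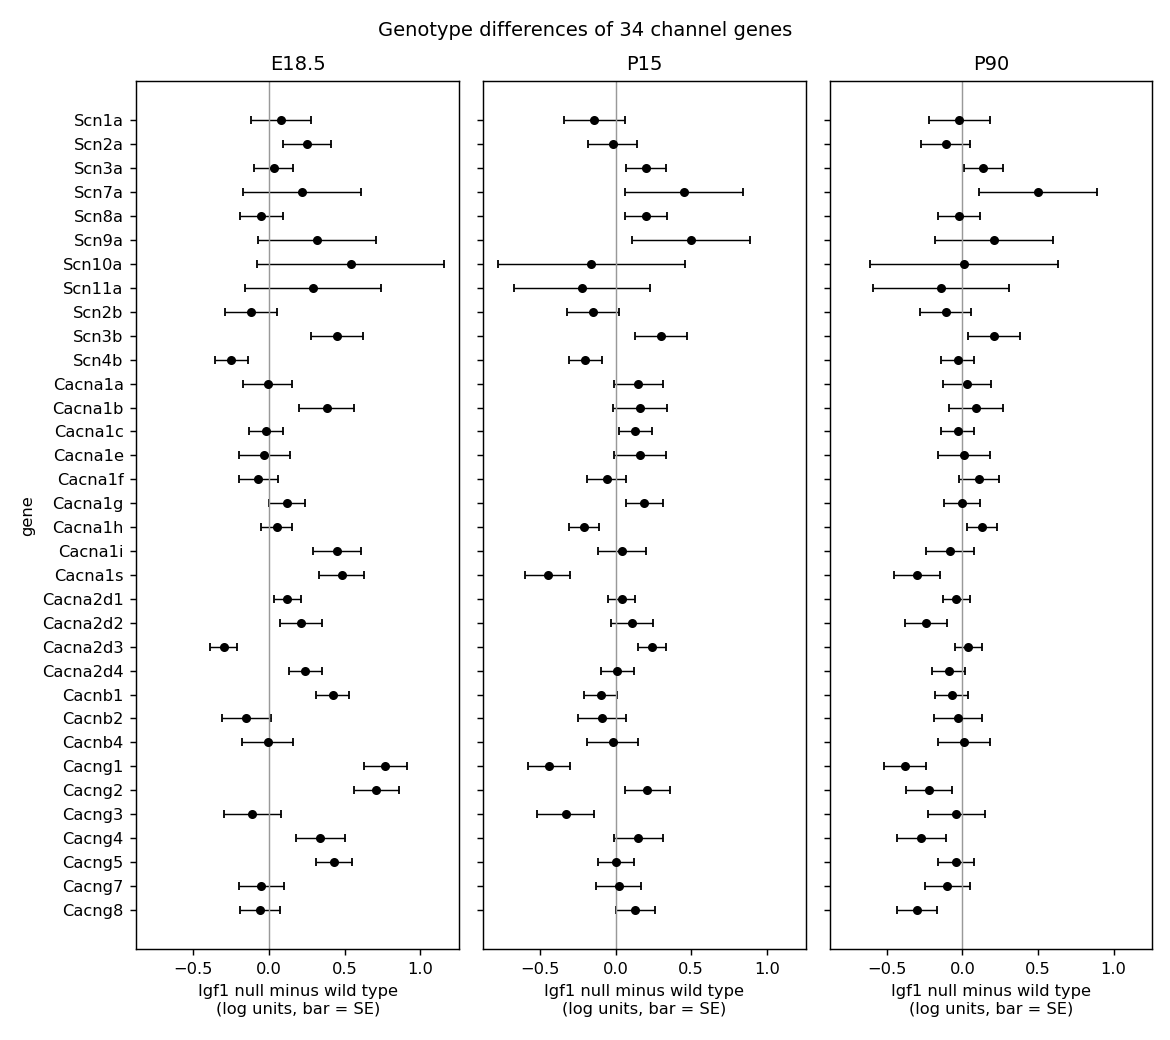
Igf1 null minus wild-type difference of the 34 channel genes in log units (horizontal axes, bars of 1 SE from the limma fit) at E18.5, P15 and P90, with genes in rows by role. Cacng1 is the highest point at E18.5 (0.77) and among the lowest at P15 (-0.44) and P90 (-0.38), and the bars of Scn7a, Scn9a, Scn10a and Scn11a are the widest.

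Scn9a, Scn10a and Scn11a, the pores of peripheral sensory neurons, and Scn7a, a sodium-sensing relative found in glia and sensory ganglia, varied more between arrays of 1 group than nearly all other genes. Their residual SDs within groups were 0.53 for Scn7a, 0.53 for Scn9a, 0.84 for Scn10a and 0.61 for Scn11a, above 99.5%, 99.5%, 99.9% and 99.8% of all genes. No comparison called any of them. Scn9a was called in wild-type mice for P15 minus E18.5 without the 4 arrays (-0.85, adjusted p = 0.027) and with array medians subtracted (-0.98, 0.033), and for P90 minus P15 as deposited (1.07, 0.041).

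Scn10a measured 4.09, 4.38 and 2.23 in null and 2.80, 3.17 and 3.12 in wild-type arrays at E18.5. At P15 it measured 3.82, 2.67 and 2.24 in null and 3.06, 2.45 and 3.70 in wild-type arrays, and at P90 3.45, 3.48 and 4.00 in null and 4.58, 2.14 and 4.19 in wild-type arrays. The groups overlapped at every age, and the widest group, wild-type P90, spanned 2.44. That group was also the widest for Scn7a (6.28, 4.56 and 5.65), Scn9a (5.10, 3.31 and 4.17) and Scn11a (4.74, 2.72 and 4.24). In all 4 genes array 1 was the highest and array 2 the lowest there, and in the null E18.5 group array 2 was the highest and array 3 the lowest.

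Prph, an intermediate filament of peripheral and ganglion neurons, shared its highest array with each of them in 4 or more of the 6 groups. It measured 5.53, 6.05 and 4.34 in null E18.5 arrays and 5.76, 3.92 and 5.02 in wild-type P90 arrays, and was singled out of 7 ear ganglion neuron markers after its values were seen. Of the other 6, Isl1 shared this order in null E18.5 arrays (5.43, 5.52 and 5.29) and wild-type P90 arrays (4.80, 3.94 and 4.26). In wild-type P90 arrays Gata3 was lowest in array 2 but highest in array 3 (3.78, 3.37 and 3.99). Array 1 was the lowest there for Ntrk2 (6.02, 6.13 and 6.09), Ntrk3 (6.23, 6.41 and 6.28), Calb2 (6.75, 7.06 and 7.42) and Pou4f1 (2.65, 2.79 and 2.72). The lowest array of Prph was the lowest for Scn7a in 5, Scn9a in 6, Scn10a in 3 and Scn11a in 3 of the 6 groups. The highest array of Prph was the highest for Scn7a in 6, Scn9a in 5, Scn10a in 4 and Scn11a in 5. Null E18.5 and wild-type P90 are also the groups that hold the 4 arrays standing apart, and the part of nerve tissue in the spread was not tested. Scn10a and Scn11a are direct neighbours on chromosome 9, and Scn9a and Scn7a on chromosome 2.

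**Figure D5:**
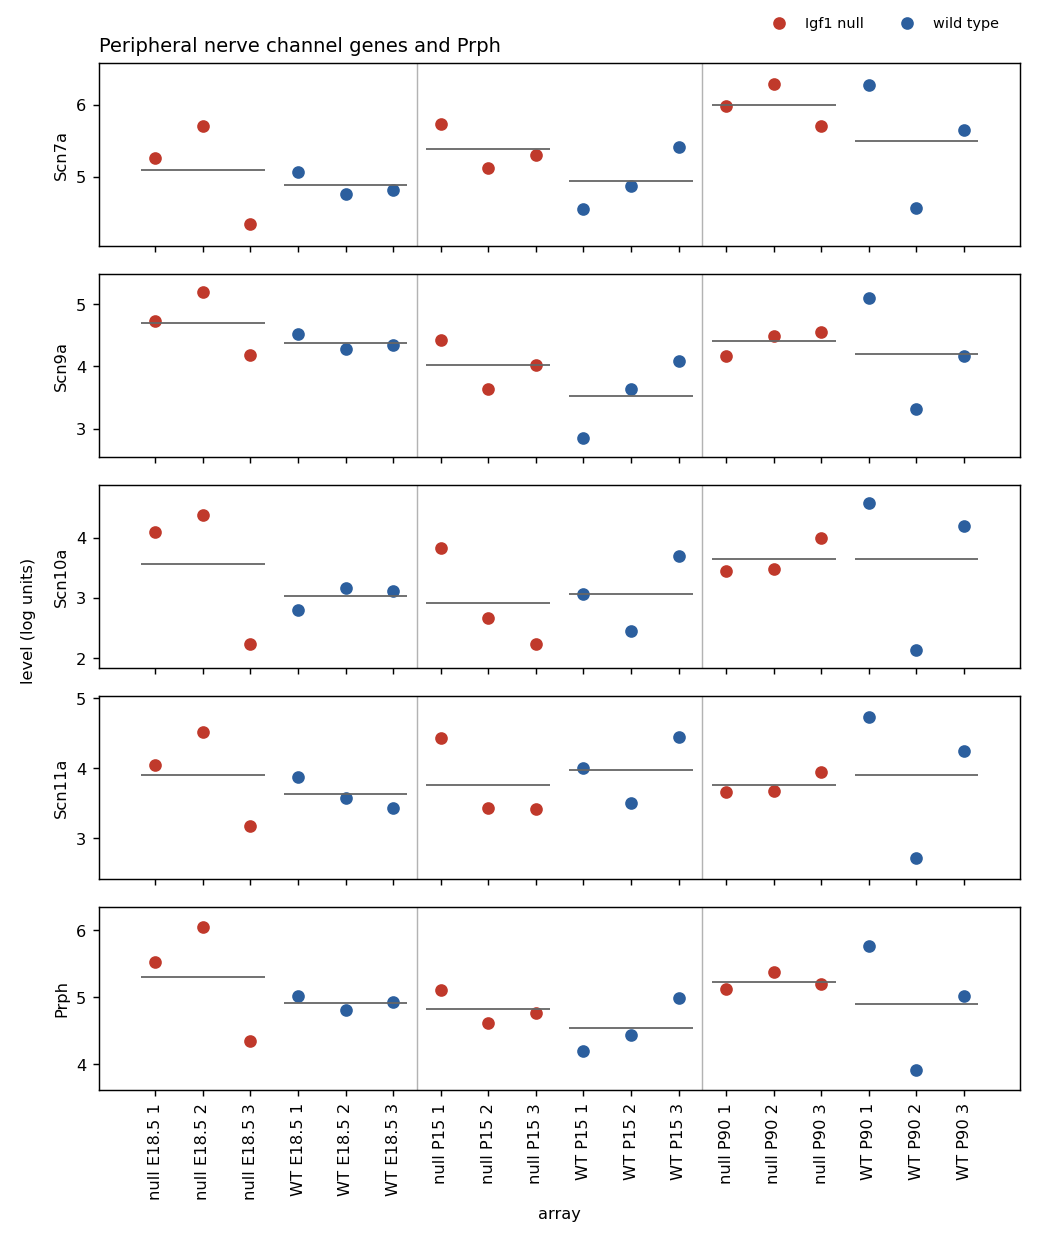
Levels in log units (vertical axes) of Scn7a, Scn9a, Scn10a, Scn11a and the nerve filament gene Prph in each of the 18 arrays (horizontal axis), with lines at group means, Igf1 null in red and wild type in blue. All 5 genes are highest in null E18.5 array 2 and lowest in array 3 within that group, and highest in wild-type P90 array 1 and lowest in array 2 within that group.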

How the data were processed

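RNA from 18 samples (3 arrays in each of 6 groups, 100 ng per array) was read on Affymetrix Mouse Gene 1.1 ST arrays, per the labels' protocols. Log values of 28853 probe sets, running from 0.26 to 10.03, were deposited by the authors as 1 table. How they were summarized and corrected, and their log base, the sources used here do not say. The plan assumed normalized values, but deposited array medians ran from 3.88 to 4.82, so arrays were quantile normalized, which removes any overall difference between groups. The number of arrays limits the precision. For 6 postnatal wild-type samples the description says Igf1 -/- while title, source and genotype say wild type, and these 3 labels were used.

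Gene names came from the platform annotation (21789 probe sets with 1 symbol, 1621 with several, 5443 unlisted), updated through RefSeq of GRCm38.p6 (21698 matched). The probe set with the highest mean stood for a gene, and 3 probe sets reading several Scn genes were not used. All arrays entered 1 limma fit (version 3.58.1 in R 4.3.3) with group means as coefficients and moderated variances (prior degrees of freedom 2.98), and the fit was tested on simulated data. Any member could be named; other genes came from 14 lists (113 of 117 genes measured), the 4 smallest p in a list first. Members and lists were chosen with earlier results of these data known. Motifs were searched with Python 3.11.15. Alternatives were other scalings, filters, probe sets, covariates, a replicate block and left-out arrays. The labels name no pairing by replicate number, and none was assumed in the main fit. Deviations of same-numbered arrays correlated by -0.19 to 0.24 over 9 pairs, with 2 over 0.1, and those of differently numbered arrays by -0.32 to 0.42. With so few arrays these values cannot exclude a shared litter or batch.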

Additional observations from a re-analysis of the deposited data

Results flagged for a closer look

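The genotype difference of Cacng1 was not equal at the 3 ages by the F test over all genes in limma (adjusted p = 0.031). Null minus wild type was 0.77 ± 0.14 at E18.5, -0.44 ± 0.14 at P15 and -0.38 ± 0.14 at P90, so the difference at P15 minus that at E18.5 was -1.21 ± 0.20. At E18.5, 3 of 3 null arrays lay above all wild-type arrays, and at P90 all 3 lay below. The mean of 11 skeletal muscle markers per array was 6.78 to 7.21 in null and 5.77 to 6.34 in wild-type E18.5 arrays, and 6.14 to 6.58 in null and 7.01 to 7.14 in wild-type P15 arrays. Its part in the Cacng1 result was not tested. Without the 4 arrays that stood apart, which leaves a single array in null E18.5 and in wild-type P90, the value was -0.97.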

How the results depend on the processing

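Of 67 age differences called among members, each alternative that kept all groups retained 54 to 67 calls and reversed none. The losses were 13 with the Xist level as a covariate, 11 in values as deposited, 11 without the 4 arrays that stood apart, 8 with only the compared groups' arrays fitted, 7 with array medians subtracted, 5 with a term for the 4 arrays, 1 with an intensity trend and 0 with dim genes left out or probe sets averaged. With replicate number as a block, 64 of 67 calls stayed. It lost Cacna1e in both genotypes and Cacna2d4 in wild-type mice (P90 minus P15), and it left the counts of genotype calls at 0 at each age and of the F test at 1. For P90 minus P15 in wild-type mice (12 called) the count was 2 with Xist as a covariate, 7 with a term for the 4 arrays, 4 without them, 7 with only the compared groups' arrays and 6 to 10 with 1 array left out. In null mice (11 called) it was 7 to 10 with 1 array left out. For P15 minus E18.5 it was 22 to 24 in null and 19 to 22 in wild-type mice with 1 array left out. The genotype difference at E18.5 (0 called) gave 1 call with dim genes left out, 2 with an intensity trend and 0 to 3 with 1 array left out. E18.5 calls over all genes rose from 16 to 27 with dim genes left out and 63 with the trend. At P15 and P90 the member counts stayed at 0. The F test (1 called) gave 0 as deposited, 0 with Xist, 0 with a term for the 4 arrays and 0 to 2 with 1 array left out. Its calls over all genes fell from 51 to 9 as deposited, 7 with Xist and 0 with the term. Cacna1h in wild-type mice, P90 minus P15, was -0.09 and uncalled, but 0.45 as deposited (adjusted p = 0.034). The deposited values shifted the median of all genes by up to 0.39 (null P90 minus P15), and array medians subtracted by -0.18 (wild-type P15 minus E18.5), so changes are relative to the other genes. The causes of these shifts were not tested.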
